A study of Arabidopsis thaliana with 5 samples.

Results

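R-loop peaks of 2 DRIP samples of Arabidopsis thaliana seedlings were set against each other position by position. A DRIP peak is a stretch of genome enriched by immunoprecipitation with S9.6, an antibody against DNA:RNA hybrids, and its summit is the base with the highest read pileup. Peaks of replicate 1 and replicate 2 that shared at least 1 bp were joined into connected sets. Of 47291 peaks in replicate 1 and 39888 in replicate 2, 34476 of each formed one-to-one pairs, in which each peak overlapped just the other. The 4 peak lists of the series hold 155741 peaks in all.

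In an R-loop, a nascent RNA pairs with the DNA strand it was copied from and leaves the other DNA strand single. R-loops form behind transcribing polymerases, and ribonuclease H, topoisomerases and helicases limit or remove them. A DRIP peak has no sharp molecular edge: its position depends on where the hybrid lies, on the fragments that the antibody carries down and on the peak caller. How far the summit and the boundaries of a peak move between samples shows how repeatable its position is. An offset from the hybrid that both samples share would not show in these distances.

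Both samples came from nuclei of wild-type Columbia seedlings, aged 12 days. Their DNA was cut with HindIII, EcoRI, SspI, RsaI, MspI and DdeI, precipitated, and then sonicated to fragments of 150 bp. The series also holds 2 DRIP samples of the same genotype and age treated with RNase H and 1 input sample, which were not analysed here. Whether the seedlings of the replicates were grown apart is not stated in the labels, and differences between them may be technical. A pair of samples of 1 group allows no test between them. The values below describe these samples, with 95% intervals (Wilson for shares, order statistics for medians) that cover counting error only, take peaks as independent and ignore amplified copies of reads.

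Peaks in both lists were at least 100 bp wide, and 722 peaks of replicate 1 and 576 of replicate 2 had exactly that width. Neighbouring peaks of a list were never closer than 151 bp. These limits are the same in both lists, and they bound what can be seen: a peak narrower than 100 bp and a gap shorter than 151 bp do not occur. Median widths were 240 and 270 bp in replicates 1 and 2. Read totals are not in the peak lists, so the depth of either library is unknown. The deposited fold of a peak is the authors' own value of pileup over local background. It was used to rank or filter peaks and pairs, a pair by the smaller of its 2 folds, and folds of both samples printed side by side show no change in level.

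The correspondence between the lists was mostly simple. One-to-one pairs held 72.9% of replicate 1 peaks and 86.4% of replicate 2 peaks. In 1161 sets a single replicate 1 peak faced several replicate 2 peaks, in 884 sets several replicate 1 peaks faced a single replicate 2 peak, and 90 sets had several peaks on both sides. The peaks left without a partner, 9679 in replicate 1 and 1966 in replicate 2, were narrow and weak. Their median width was 137 bp in replicate 1 and 134.5 bp in replicate 2, against 274 and 272 bp in the one-to-one pairs, and their median folds were 2.38 and 2.29 against 3.24 and 3.02. On the near side of the overlap rule, 8 one-to-one pairs shared 10 bp or less, the smallest overlap being 1 bp. On the far side, 4 replicate 1 peaks and 3 replicate 2 peaks without a partner lay within 10 bp of a peak of the other list.

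Summits of paired peaks lay close together. The median distance between them was 20 bp (95% interval 20 to 21), with quartiles of 6 bp and 51 bp. Both summits fell on the same base in 1782 pairs, 5.17% (4.94 to 5.41). They were within 10 bp in 34.9% of pairs, within 50 bp in 74.7% (74.2 to 75.2) and within 100 bp in 88.5%. Of all pairs 99.6% were within 500 bp, and the largest distance was 1240 bp. In 96.2% of pairs both summits lay in the bases that the 2 peaks shared. Over all pairs the directions were even: the replicate 2 summit had the higher coordinate in 47.2% of pairs (46.7 to 47.7) and the lower in 47.6% (47.1 to 48.2).

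Peak width left the median summit distance alone and changed its tail. Pairs were classed by the mean of their 2 widths. The median distance was 19 bp (19 to 20) in the 9635 pairs under 200 bp, 21 bp (20 to 22) in the 15642 pairs of 200 to under 400 bp, 20 bp (19 to 21) in the 7387 pairs of 400 to under 800 bp and 20 bp (17 to 23) in the 1812 pairs of 800 bp or more. Intervals of these 4 medians overlap or touch. Summits over 100 bp apart, which need a peak wide enough to hold them, made up 4.09% (3.71 to 4.50) of the narrowest class, 11.2% (10.7 to 11.7) and 18.5% (17.6 to 19.4) of the middle classes and 25.6% (23.7 to 27.7) of the widest. The distance exceeded by 1 pair in 10 rose from 71 bp to 110 bp, 212 bp and 426 bp over the same classes. As a share of peak width, the median distance fell from 12.6% to 7.54%, 3.81% and 1.91%.

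**Figure D1:**
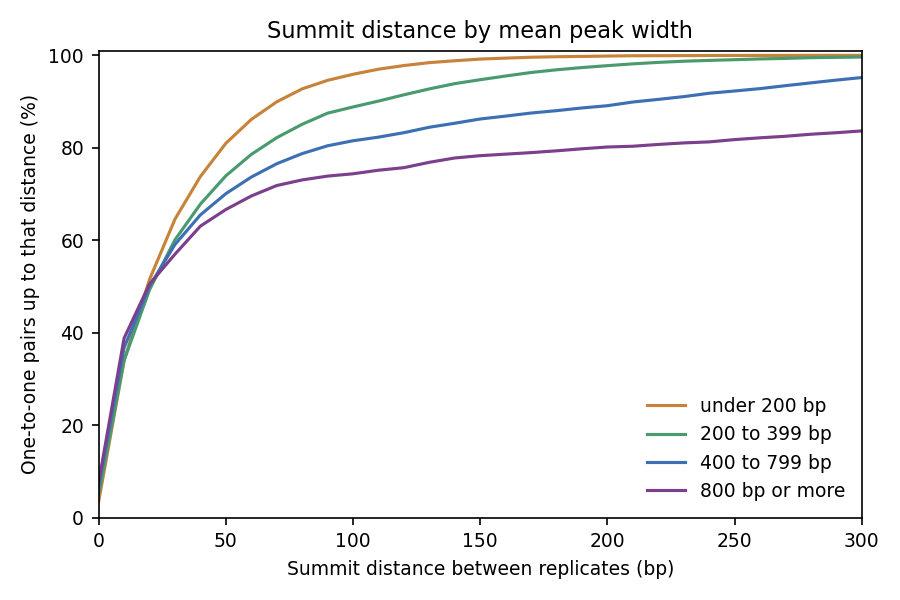
Cumulative share of one-to-one pairs (vertical axis, %) with summits up to a given distance apart (horizontal axis, bp), 1 line for each class of mean peak width. The 4 lines cross 50% near the same distance, 19 to 21 bp, and separate above it, where wide peaks keep 25.6% of their pairs beyond 100 bp and narrow peaks 4.09%.

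Within a width class, summit distance followed peak strength. Quartiles were set on the smaller of the 2 folds of a pair, which ran from 1.24 to 2.46 in the lowest quartile and from 3.66 to 10.5 in the highest. Over all widths the median distance was 30 bp (29 to 31) in the lowest quartile, then 23 bp (22 to 23), 18 bp (18 to 19) and 13 bp (12 to 13) in the highest. Strong peaks were also wider, with a median replicate 1 width of 433 bp in the highest quartile against 190 bp in the lowest, so the flat median over width hides opposing trends. Among pairs of 400 to under 800 bp the median distance was 52 bp (41 to 67) in the lowest fold quartile and 13 bp (12 to 14) in the highest, and the share with summits over 100 bp apart was 36.4% against 9.64%. Among pairs under 200 bp it was 26 bp (25 to 27) against 8 bp (6 to 11). In the lowest quartile the distance rose with width, from 26 bp to 38 bp (35 to 41) and 52 bp over the first 3 classes. In the highest quartile it ran from 8 bp through 12 bp and 13 bp to 15 bp (13 to 18). The tail did not vanish with strength: among pairs of 800 bp or more in the highest quartile, 21.6% (19.5 to 23.9) still had summits over 100 bp apart.

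**Figure D2:**
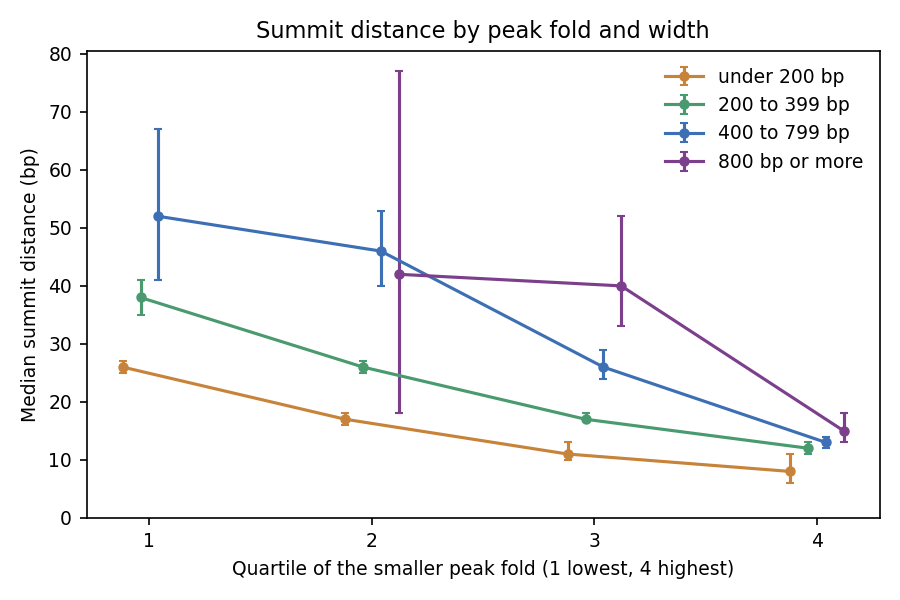
Median summit distance (vertical axis, bp) against the quartile of the smaller fold of a pair (horizontal axis), 1 line per width class, with 95% order-statistic intervals. Each line falls from left to right, to between 8 and 15 bp in the highest quartile, and the class of 800 bp or more has no point in the lowest quartile, where it held 19 pairs.

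The strongest pairs show the agreement in position at single genes. At AT2G08986 the fold was 10.5 in replicate 1 and 11.1 in replicate 2. In TAIR10, as in all coordinates here, the peaks spanned bases 3625879 to 3626412 and 3625876 to 3626409 of chromosome 2: both were 534 bp wide, and the summits were 1 bp apart. At AT3G22150 the folds were 10.2 and 9.60, the widths 587 and 495 bp, and both summits stood on base 7812988 of chromosome 3. AT1G36990 (folds of 9.49 and 9.60) and AT5G10340 (9.27 and 10.1) had summits 6 bp and 2 bp apart. AT1G22110 (9.41 and 9.42) was looser, at 41 bp, although its boundaries moved by no more than 32 bp. These 5 pairs were chosen by fold and are given as examples of position only.

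Some wide peaks also had close summits, and those given here were chosen for it. Among pairs with summits within 10 bp and a fold of at least 4 in both samples, the widest overlapped AT4G33740, with widths of 2041 and 2152 bp in replicates 1 and 2 and summits 4 bp apart. NCED4, which encodes a carotenoid cleavage dioxygenase, carried peaks of 2024 and 2111 bp with summits 9 bp apart. AT3G23750, the receptor-like kinase gene BARK1, carried peaks of 1994 and 2030 bp with summits 3 bp apart. SIP3, the gene of the protein kinase CIPK6, followed with 1944 and 1965 bp (10 bp), then CIP4, whose protein binds the photomorphogenesis repressor COP1, with 1966 and 1939 bp (3 bp), and AT3G12860 with 1758 and 1753 bp and summits on the same base.

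In other wide and strong peaks the summit moved much further than the boundaries, which shifted by at most 148 bp in the 6 pairs given here. The largest summit distance among pairs with a fold of at least 4 in both samples was in AT3G07540. Its peak ran from 2405883 to 2407735 on chromosome 3 in replicate 1 and from 2405901 to 2407883 in replicate 2, yet the summits were 1240 bp apart, toward the upper end in replicate 1 and near the lower end in replicate 2. The folds were 4.04 and 4.33. In AT5G36690 the summit moved the other way, by 1190 bp, in a peak of 1815 bp in replicate 1 and 1852 bp in replicate 2. AT3G22100 (1140 bp), AT5G17930 (1057 bp), AT4G28100 (987 bp) and AATP1 (985 bp), an AAA-type ATPase gene, completed the 6 longest. At AT3G22100, which spans 7783638 to 7784469, the summits at 7784623 and 7783483 lay outside the gene on opposite sides. In 5 of these 6 pairs both summits lay in peaks of the same strand list, w for AT3G07540, AT3G22100 and AT4G28100 and c for AT5G36690 and AATP1. Widths of these 6 pairs differed by at most 0.10 on the log2 scale.

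**Figure D3:**
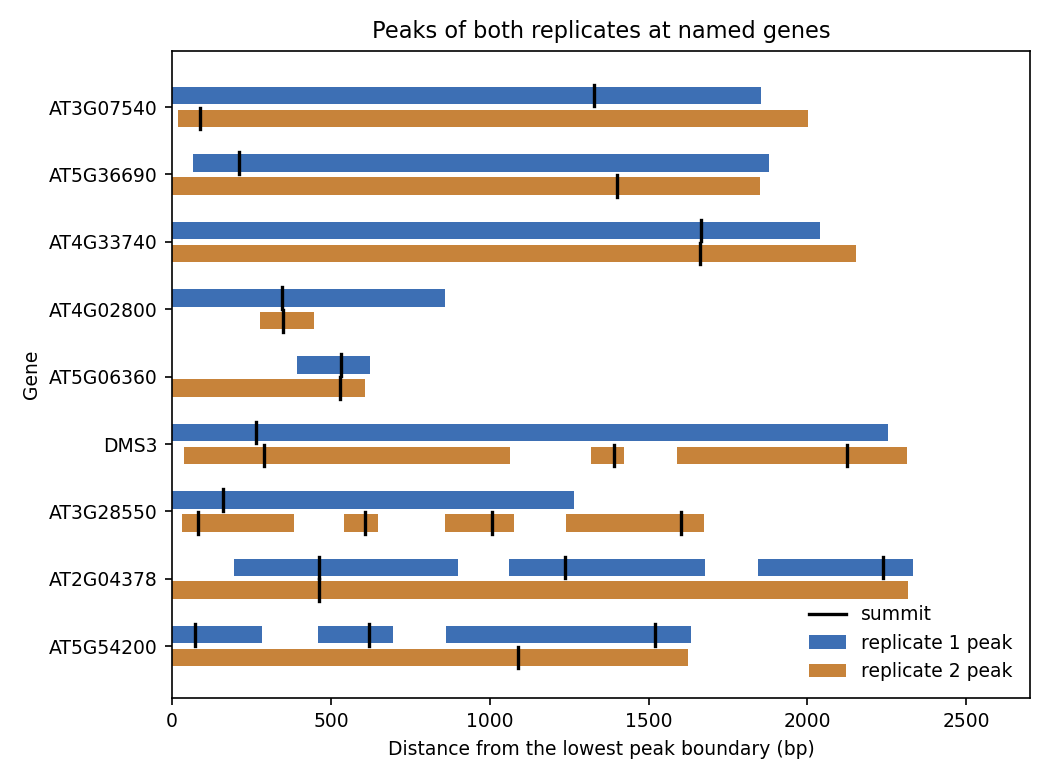
Peaks of replicate 1 (blue) and replicate 2 (orange) at 9 genes, with summits as black bars, by distance from the lowest boundary at that gene (horizontal axis, bp). In AT3G07540 and AT5G36690 the summit moves by 1240 and 1190 bp and no boundary by more than 148 bp, in AT4G33740 the summit moves by 4 bp and the upper boundary by 111 bp, AT4G02800 and AT5G06360 change width with summits 3 and 5 bp apart, and the last 4 genes hold a peak that is whole in 1 sample and in 3 or 4 parts in the other (a further replicate 1 peak beside AT3G28550 is not drawn).

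Boundaries moved about as much as summits. The median absolute shift was 21 bp at the lower and 21 bp at the upper boundary. The lower boundary was within 10 bp in 30.4% of pairs and over 100 bp away in 9.24%, and the upper in 30.2% and 9.01%. The bases shared by a pair made up a median of 0.817 of the bases in either peak. Both boundaries were displaced inward in replicate 2 by a median of 4 bp. The lower boundary lay further in than in replicate 1 in 55.7% of pairs and further out in 41.8%, and the upper boundary in 55.6% and 41.9%. Shifts at the 2 ends of a peak were nearly unrelated across the pairs (Spearman's rho -0.12 over 34476 pairs of the same 2 samples, with outward taken as positive at both ends).

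The even directions over all pairs were the sum of opposite displacements on the strands. The lists named w and c are both recorded under replicate 1. Whether replicates were pooled for them is not known, so they are not taken as independent of either sample. The labels do not say what the letters mean, and w and c are taken here as the 2 strands. The shared bases of 15589 pairs touched a w peak alone and those of 15373 pairs a c peak alone. In w pairs replicate 2 lay at higher coordinates: the median displacement was 11 bp (11 to 12) at the lower boundary, 11 bp (10 to 12) at the upper boundary and 4 bp (4 to 5) at the summit. In c pairs it lay at lower coordinates, by -11 bp (-12 to -10), -11 bp (-11 to -11) and -5 bp (-5 to -4). The lower boundary was higher in replicate 2 in 73.5% (72.8 to 74.2) of w pairs and 37.6% (36.8 to 38.3) of c pairs, and the upper boundary in 60.8% and 23.3%. Both ends moved up in 44.8% of w pairs and down in 8.99%, against 8.87% and 44.6% of c pairs. These shares do not show that the ends of a peak moved together. With outward as positive, Spearman's rho of the 2 end shifts was 0.0050 within w pairs and 0.0063 within c pairs. Under 200 bp it was -0.14 and -0.13.

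The same signs held in each width class, each fold quartile and each chromosome. On the 5 chromosomes the summit displacement ran from 4 to 5 bp in w pairs and from -6 to -4 bp in c pairs. The median signed displacement of the summit lay nearest to 0 in wide and strong peaks. It was 6 bp (5 to 7) in w and -7 bp (-8 to -6) in c pairs under 200 bp. At 800 bp or more it was 1 bp (0 to 2) and -1 bp (-2 to 0), where the intervals reach 0. The absolute summit distance did not fall with width, with medians of 19 bp under 200 bp and 20 bp at 800 bp or more. By fold the signed displacement of the summit went from 9 bp (7 to 10) and -9 bp (-11 to -8) in the lowest quartile to 2 bp (1 to 2) and -1 bp (-2 to -1) in the highest. The midpoints of the peaks did not approach 0 in this way. They were displaced by 12.5 bp (11.5 to 14) and -13 bp (-14.5 to -12) in the lowest quartile and 18 bp (16.5 to 18.5) and -16.5 bp (-17.5 to -15.5) in the highest. The 2 boundaries went opposite ways with fold. In w pairs the lower boundary went from 17 bp (16 to 19) in the lowest quartile to 7 bp (7 to 8) in the highest, and the upper from 5 bp (4 to 7) to 22 bp (20 to 23). In c pairs the upper boundary went from -18 bp (-19 to -17) to -6 bp (-7 to -6), and the lower from -5 bp (-6 to -3) to -20 bp (-22 to -18). The pattern was noticed after the values were seen, and no cause of it was tested. Summed over both strands it cancels.

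**Figure D4:**
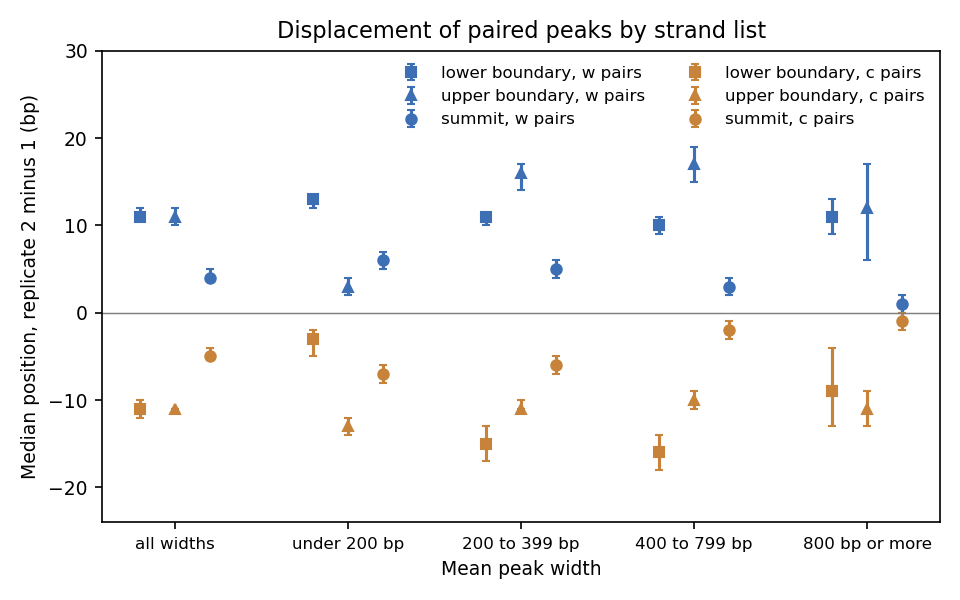
Median displacement of replicate 2 against replicate 1 (vertical axis, bp, positive toward higher coordinates) of the lower boundary (squares), upper boundary (triangles) and summit (circles), for pairs that touch a w peak alone (blue) or a c peak alone (orange), over all pairs and by mean width, with 95% order-statistic intervals. Blue points lie above 0 and orange points below it in each class, and the summits approach 0, at 1 and -1 bp, in pairs of 800 bp or more.

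Peaks of replicate 2 were more often nested in those of replicate 1 than the reverse. The replicate 2 peak lay within the replicate 1 peak in 30.5% of pairs (30.02 to 30.99), and the replicate 1 peak within the replicate 2 peak in 16.6% (16.20 to 16.98). Staggered pairs were even, with 26.3% displaced to lower and 26.5% to higher coordinates in replicate 2. Just 21 pairs had the same boundaries. Pairs with the replicate 2 peak inside were weaker, with a median smaller fold of 2.79 against 3.12 for pairs with the replicate 1 peak inside.

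The change in width between the samples was small at the median and had long tails. The median log2 ratio of replicate 2 width over replicate 1 width was -0.013 (-0.016 to -0.011), and 47.1% of pairs (46.6 to 47.6) were wider in replicate 2, 52.0% wider in replicate 1 and 0.888% equal. The 10th and 90th percentiles of the ratio were -0.55 and 0.42. Its sign turned with peak strength: the median was -0.10 (-0.11 to -0.09) in the lowest fold quartile and 0.029 (0.025 to 0.032) in the highest, where 57.6% of pairs (56.5 to 58.6) were wider in replicate 2 against 39.1% (38.1 to 40.2) in the lowest. A class set by the smaller fold can favour pairs that rank low in replicate 2, where the median fold of these pairs was 3.02 against 3.24 in replicate 1. The part of this choice in the turn was not tested. For peaks in the upper 50% of each list by fold the median over all pairs was 0.015, the opposite sign to that of all peaks.

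The width change by width class depended on which sample set the class. By the mean width of the pair, peaks under 200 bp were narrower in replicate 2 (median log2 ratio -0.09, interval -0.10 to -0.08), and the other classes lay between -0.0061 and 0.0081. Classed by replicate 1 width, the same narrow class was wider in replicate 2 (0.045, interval 0.034 to 0.055), and all 3 wider classes were narrower, from -0.034 to -0.018. Classed by replicate 2 width, the narrow class was at -0.23 (-0.23 to -0.22) and the wider classes from 0.0082 to 0.036. Of these 3 ways to set a class, the mean width is the one that treats both samples alike. By mean width, 39.3% of pairs under 200 bp (38.3 to 40.3) were wider in replicate 2, then 50.8% (49.996 to 51.6) and 49.5% (48.4 to 50.6) in the middle classes and 46.9% (44.6 to 49.2) at 800 bp or more.

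**Figure D5:**
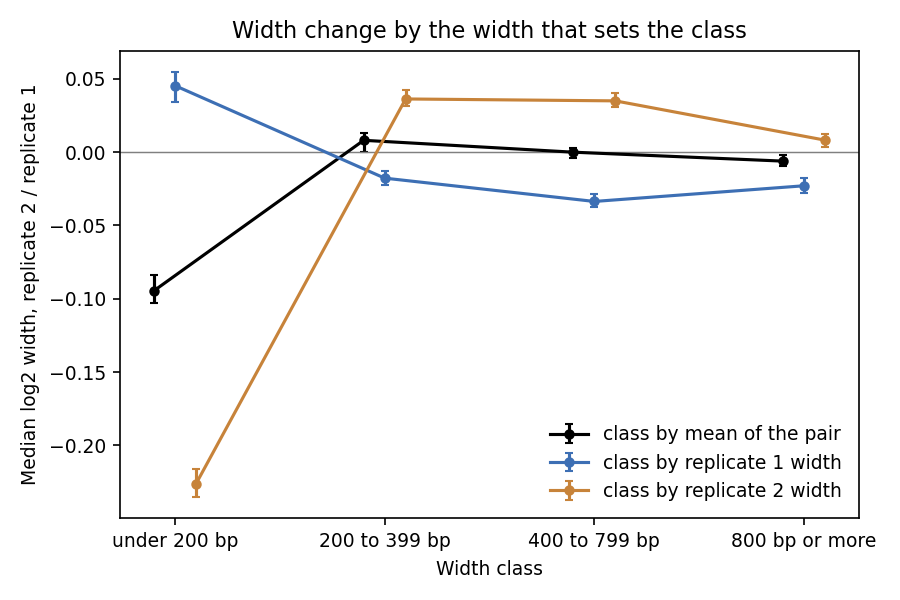
Median log2 ratio of replicate 2 width over replicate 1 width (vertical axis) by width class (horizontal axis), with the class set by the mean width of the pair (black), by replicate 1 (blue) or by replicate 2 (orange), and 95% order-statistic intervals. The blue and orange lines lie on opposite sides of 0 in every class, while the black line leaves 0 mainly under 200 bp, at -0.09.

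In the 8 pairs with the largest gain or loss of width among those with a fold of at least 4 in both samples, summits were 1 to 43 bp apart. AT4G02800 lost most: its peak was 858 bp wide in replicate 1, at chromosome 4, 1250456 to 1251313, and 172 bp in replicate 2, with summits 3 bp apart and folds of 5.10 and 5.03. AT1G20400 narrowed from 584 to 220 bp with summits 1 bp apart. TINY2, which encodes an AP2/ERF-type transcription factor, narrowed from 312 to 119 bp, and SUC2, the gene of the sucrose transporter that loads the phloem, from 384 to 147 bp, with summits 43 and 4 bp apart. AT5G06360 gained most, from 232 to 608 bp, while the summit moved by 5 bp. With outward as positive, its boundaries shifted by 392 bp at the lower and -16 bp at the upper end. AT5G24390 widened from 178 to 443 bp, the tetraspanin gene TET3 from 305 to 759 bp and AT1G60300 from 223 to 530 bp, with summits between 11 and 31 bp apart. In these 8 pairs the folds of both samples were between 4.02 and 5.10.

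Splits of 1 peak into several were a property of wide peaks. Of 37612 matched replicate 1 peaks, 1255 overlapped more than 1 replicate 2 peak, 3.34% (3.16 to 3.52). Of 37922 matched replicate 2 peaks, 976 overlapped more than 1 replicate 1 peak, 2.57% (2.42 to 2.74). For peaks in the upper 50% of each list by fold these shares were 2.08% (1.88 to 2.29) and 2.13% (1.93 to 2.35), with overlapping intervals. This filter can also drop the weaker parts of a split peak, which removes splits by construction. Where 1 replicate 1 peak faced several replicate 2 peaks, the median fold was 3.93 for the former and 3.08 for the latter. By the width of the unsplit peak, the share split was 0 of 10133 under 200 bp in replicate 1, which allows a share of up to 0.0296% (3 counts of the total), and 0.0558% from 200 to under 400 bp. It was 5.32% (4.86 to 5.82) from 400 to under 800 bp and 27.8% (26.2 to 29.5) at 800 bp or more. For replicate 2 peaks the last 2 classes were at 5.34% (4.89 to 5.84) and 19.3% (17.8 to 20.9). A split peak must hold at least 1 gap of 151 bp or more with peak bases on either side, so narrow peaks can seldom be split. Among replicate 1 peaks of 400 bp or more the share split did not follow fold, with 10.5%, 11.5%, 10.7% and 11.2% over the 4 fold quartiles. For replicate 2 peaks it was 10.4% in the lowest quartile and from 6.97% to 8.27% in the others.

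The gaps that made the splits were short. The median gap between parts was 183 bp where replicate 2 was split and 179 bp where replicate 1 was split, and 65.1% and 69.5% of gaps were no longer than 200 bp, close to the smallest gap in either list. The parts covered a median of 72.9% and 72.5% of the unsplit peak. The unsplit summit lay in the part with the highest fold in 83.6% of replicate 1 peaks (81.4 to 85.5) and 83.9% of replicate 2 peaks (81.5 to 86.1), and in a gap in 0.956% and 1.54%. Its median distance from the summit of that part was 28 bp and 24.5 bp, near the 20 bp of one-to-one pairs. Most splits gave 2 parts, and 55 replicate 1 peaks and 25 replicate 2 peaks gave more.

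The gene with most parts was AT3G28550. A replicate 1 peak of 1266 bp at chromosome 3, 10700956 to 10702221, with a fold of 2.36, met 4 replicate 2 peaks of 353, 108, 216 and 435 bp with folds of 2.58, 1.80, 1.78 and 2.09, and the last of these also reached a further replicate 1 peak. In AT2G22795 a replicate 1 peak of 2585 bp met parts of 704, 134 and 1296 bp, and in AT4G20160 one of 2400 bp met parts of 386, 1196 and 332 bp. DMS3, needed for RNA-directed DNA methylation, had a replicate 1 peak of 2253 bp at chromosome 3, 18255811 to 18258063, with a fold of 5.35. Its replicate 2 parts were 1029, 102 and 725 bp wide, with folds of 5.10, 2.02 and 3.79, and the summit of the strongest part was 26 bp from that of the whole peak. In the other direction, AT2G04378 had a replicate 2 peak of 2317 bp against replicate 1 parts of 706, 614 and 488 bp, with the leading summits 1 bp apart. AT2G19870 (1906 bp), AT3G29280 (1809 bp) and AT5G54200 (1622 bp) likewise faced 3 replicate 1 peaks each. At AT5G54200 the strongest part, with a fold of 4.95, had its summit 433 bp from that of the whole peak, whose fold was 3.29.

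Gene biotype moved the median summit distance by a few bp among the 4 largest classes. The base midway between the summits placed a pair: protein-coding genes took precedence, then genes of small RNAs, pseudogenes, long noncoding RNAs and other RNAs, then flanks within 1000 bp of any gene, and the remainder counted as intergenic DNA. The 22352 pairs in protein-coding genes had a median summit distance of 20 bp (20 to 21), the 3987 in pseudogenes 23 bp (21 to 24), the 5616 in gene flanks 20 bp (19 to 22) and the 2011 in intergenic DNA 18 bp (16 to 19). Summits over 100 bp apart made up 12.0% (11.6 to 12.4), 12.0% (10.99 to 13.01), 10.2% (9.44 to 11.02) and 9.45% (8.25 to 10.8) of these classes. Peaks in intergenic DNA were narrower, with a replicate 1 median of 226 bp against 286 bp in protein-coding genes. Within the pairs of 400 to under 800 bp the share over 100 bp was 18.3% in protein-coding genes, 17.8% in flanks, 17.8% in intergenic DNA and 21.4% in pseudogenes. At 800 bp or more it was 26.3% (24.0 to 28.7) in protein-coding genes and 16.97% (12.01 to 23.43) in flanks, whose intervals do not overlap, 27.3% (16.3 to 41.8) in intergenic DNA and 28.4% (22.8 to 34.9) in pseudogenes. In the lowest fold quartile the median distance was 32 bp (31 to 34) in protein-coding genes, 29.5 bp (27 to 32) in pseudogenes and 22.5 bp (19 to 25) in intergenic DNA, whereas in the highest it was 13 bp (12 to 14), 13 bp (10 to 15) and 12 bp (9 to 17).

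Width change and splits varied little across the classes. The median log2 width ratio was between -0.027 and -0.0057 in all 7 classes. Among replicate 1 peaks of 400 bp or more, the share split in replicate 2 was 10.7% (10.0 to 11.4) with the summit in protein-coding genes, 11.9% (10.3 to 13.7) in pseudogenes, 11.1% (9.63 to 12.9) in flanks and 13.7% (10.7 to 17.5) in intergenic DNA. Among replicate 2 peaks it was 8.47%, 7.91%, 8.27% and 10.6%. Over all widths intergenic peaks were split less often than those in protein-coding genes, 2.50% (1.92 to 3.25) against 3.51% (3.29 to 3.75) in replicate 1, which goes with their smaller width.

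Pairs centred on genes of small structured or regulatory RNAs were few and close. In 97 such pairs the median summit distance was 12 bp (8 to 16), and 86.6% (78.4 to 92.0) were within 50 bp. They were strong, with a median smaller fold of 3.47 against 2.93 for all pairs, and 45.4% of them fell in the highest fold quartile, where their median distance was 8.5 bp. The 45 pairs at tRNA genes had a median of 13 bp (7 to 26) and the 28 at snoRNA genes 9.5 bp (3 to 20). Placing the midpoint of the summits in a gene this short favours summits that lie close. When any overlap of the shared bases with such a gene counted, there were 346 pairs with a median of 20 bp (17 to 25), the same as all pairs. The 236 pairs in long noncoding RNA genes had a median of 16 bp (13 to 21), or 18 bp for the 941 with any overlap.

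The small RNA pairs named here were those with the highest smaller fold in each biotype, and their summits were at most 28 bp apart. U6.4, which encodes the spliceosomal U6 RNA, had folds of 6.78 and 7.31 and its summit on the same base. U5.6 had folds of 7.02 and 7.29 and summits 18 bp apart. The alanine tRNA genes AT5G43455 (folds of 6.38 and 5.58) and AT1G13850 (5.58 and 5.49) had summits 2 bp apart. The snoRNA genes AT1G06253 (6.38 and 7.59) and AT1G06553 (6.38 and 6.13) each had the 2 summits on the same base, in peaks of 1023 and 962 bp in replicate 1, but these bases lay outside the short snoRNA genes. MIR166b, whose microRNA targets the class III HD-ZIP genes of leaf polarity, had folds of 5.98 and 6.58 and summits 1 bp apart in peaks of 1078 and 1245 bp. MIR156b, whose microRNA targets SPL genes of the juvenile phase, had folds of 4.15 and 3.93 and summits 28 bp apart. The ribosomal RNA gene AT2G01010 held 2 pairs with folds of 1.44 to 1.55, where the lowest fold in the lists was 1.24 in replicate 1 and 1.20 in replicate 2, and summits 5 and 25 bp apart.

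The summit seldom changed gene. In 33663 of 34476 pairs, 97.6%, both summits lay in the same class of sequence. This share was 98.7% where the replicate 1 summit lay in a protein-coding gene, 97.9% in pseudogenes, 93.8% in flanks and 77.1% (67.7 to 84.4) in small RNA genes. Of 22083 pairs with both summits in protein-coding genes, 22046 had them in the same gene, 99.8%, and 37 in different genes. In a further 282 pairs just the replicate 1 summit lay in a protein-coding gene, and in 221 just the replicate 2 summit. The number of peaks per gene was less stable. Among 16623 protein-coding genes with a peak in both samples, 69.4% had the same number, 22.4% had more in replicate 1 and 8.16% more in replicate 2, with means of 1.89 and 1.71. The whole lists also differ in length, with 47291 and 39888 peaks, and peaks per gene were not counted at equal length.

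Gene groups chosen by symbol were described in the same way, beside the 23512 pairs of all protein-coding genes (median distance 20 bp, 74.3% within 50 bp). The pairs named in each group were those with the highest smaller fold. Summits lay closer in strong pairs, so the named pairs need not be typical of their group. Of all 27444 protein-coding genes, 15086 held a one-to-one pair, 55.0%, and 1793 a split peak, 6.53%. Of 18 heat shock protein genes, which encode chaperones, 15 held a one-to-one pair, 83.3%, and 2 a split peak, 11.1%. Their 30 pairs had a median distance of 16.5 bp (9 to 24), and 93.3% (78.7 to 98.2) were within 50 bp. HSP70T-2 had folds of 5.16 and 5.80 and summits 16 bp apart. HSP18.2, of the small heat shock proteins, had folds of 5.18 and 4.56 with the summit on the same base, and the chaperonin gene HSP60 had 4.39 and 4.45 with summits 6 bp apart.

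Light-harvesting and Rubisco small subunit genes held a pair in 13 of 19 genes, 68.4%, and a split peak in 1, 5.26%, with 16 pairs and a median of 21.5 bp (3 to 33). RBCS1A, for the small subunit of the enzyme that fixes carbon dioxide, had folds of 7.07 and 5.94, widths of 994 and 1042 bp and the summit on the same base. RBCS2B had folds of 6.67 and 6.18 and summits 7 bp apart. LHCA1, of the photosystem I antenna, had folds of 5.42 and 5.49 and the summit on the same base.

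WRKY transcription factor genes held pairs in 39 of 67 genes, 58.2%, and a split peak in 4, 5.97%, both near the shares of all protein-coding genes. Their 71 pairs had a median of 21 bp (11 to 28). WRKY11 had the strongest pair, with folds of 6.38 and 7.31 and summits 70 bp apart in peaks of 1427 and 1336 bp. WRKY47 and WRKY2 had theirs 28 and 3 bp apart. Ribosomal protein genes held pairs in 26 of 40 genes, 65.0%, with 35 pairs, a median of 19 bp (11 to 43) and no split peak. RPS5B (folds of 5.66 and 6.03) and RPS10B (5.66 and 5.67) had summits 28 bp apart, and RPL12-C had them 15 bp apart. Aux/IAA genes, for repressors of the auxin response, held pairs in 19 of 24 genes, 79.2%, and a split peak in 4, 16.7%, with 23 pairs and a median of 14 bp (9 to 44). IAA20, IAA7 and IAA15 had summits 9, 12 and 44 bp apart. Histone genes held pairs in 10 of 19 genes, 52.6%, 1 each, and no split peak, with a median of 21 bp (1 to 33). HTB11, HTA12 and HTA7 had summits 8, 23 and 5 bp apart. The intervals of all 6 group medians hold the 20 bp of all protein-coding genes.

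Pairs that touched both strands had summits over 100 bp apart more often over all widths, but not in each width class. Of the pairs, 3373 (9.78%) touched peaks of both strands with their shared bases. These pairs were wider (replicate 1 median 435 bp), and their summits were over 100 bp apart in 17.2% of cases (15.99 to 18.54), against 10.8% for pairs with a w peak alone and 11.0% for pairs with a c peak alone. Under 200 bp the order was opposite, with 1.99% (0.967 to 4.05) for both strands and 4.12% (3.74 to 4.55) for 1, and median distances of 13.5 bp (11 to 17) and 19 bp (19 to 20). From 200 to under 400 bp the shares were 12.4% (10.7 to 14.3) and 11.01% (10.51 to 11.54), and at 800 bp or more 26.7% (23.5 to 30.2) and 24.96% (22.53 to 27.55), with overlapping intervals in both classes. From 400 to under 800 bp they were 21.9% (19.5 to 24.4) and 17.9% (16.9 to 18.8), and the intervals did not overlap. A jump between strands was rare over all pairs, but most pairs touched a single strand list and could hardly show one. Where each summit lay in a peak of exactly 1 strand, the strands differed in 195 of 31885 pairs, 0.612%. The share was 5.23% (4.53 to 6.02) of pairs with summits over 100 bp apart, 10.7% (9.10 to 12.5) beyond 200 bp and 16.4% (10.7 to 24.2) beyond 500 bp. For comparison, 581 pairs with summits over 100 bp apart touched both strands with their shared bases. The 180 pairs with summits on different strands were counted among the 3442 with each summit in a peak of exactly 1 strand. How many of them are among the 581 was not counted. Beyond 500 bp, 53 pairs touched both strands with their shared bases, and 19 of 116 had summits on different strands.

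Split peaks also held both strands more often than unsplit peaks of like width. Of replicate 1 peaks from 400 to under 800 bp, 35.6% (31.3 to 40.1) of those split touched a w and a c peak, against 16.9% (16.1 to 17.7) of those not split. At 800 bp or more the shares were 53.8% (50.3 to 57.2) and 37.9% (35.8 to 40.0). For replicate 2 peaks they were 32.5% against 15.7% and 48.4% against 37.1%. Within these classes split peaks were also wider, with medians of 646.5 and 1092 bp against 517 and 984 bp in replicate 1 and of 626 and 1058 bp against 516 and 982 bp in replicate 2, and the part of that width in this difference was not tested. Parts that separated the strands, one touching w alone and another c alone, were found in 11.3% and 11.8% of split replicate 1 peaks in these classes and in 14.1% and 11.0% of split replicate 2 peaks.

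Few peaks without a partner lay within 100 bp of a peak of the other list, but peak spacing limits such short gaps in advance. Peaks of a list are never closer than 151 bp. Most peaks of either list overlap a peak of the other, 37612 of 47291 in replicate 1 and 37922 of 39888 in replicate 2. No share for randomly placed peaks was computed. In replicate 1, 75 of 9679 lay within 100 bp of a replicate 2 peak, 0.775% (0.619 to 0.970), 8.99% lay within 200 bp and 39.2% within 500 bp, and the median gap was 727 bp. In replicate 2, 1.98% of 1966 lay within 100 bp, 11.7% within 200 bp and 47.4% within 500 bp, with a median of 542 bp. Of these peaks, 83.4% in replicate 1 and 84.9% in replicate 2 were under 200 bp wide.

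Summit distance varied little over the 5 chromosomes. The median summit distance ran from 19 bp on chromosome 3 to 22 bp on chromosome 1, and the share within 50 bp from 73.6% on chromosome 1 to 75.5% on chromosome 5. Across the pairs, widths in the 2 samples had a Spearman's rho of 0.84 and folds of 0.86, as descriptions over 34476 pairs that share their 2 libraries and were kept for overlapping.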

How the data were processed

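Peak lists of DRIP replicates 1 and 2 and the w and c strand lists were used. Per the submitters' processing notes, the authors used CASAVA, BWA 0.7.12 and MACS2 with the TAIR10 build. For the control, the settings and any pooling, nothing is given in the sources used here. The deposited fold is a ratio of summit pileup to local background. The authors' MACS2 run also gave each peak a -log10 q-value, a -log10 p-value and a score, which is 10 times the q-value column as a whole number. The p-value and score entered no result, and the q-value entered 1 alternative. The smallest -log10 q-value was 1.31 in replicate 1 and 1.30 in replicate 2.

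Summits were the peak start plus the summit offset. Coordinates count from 1. Overlaps, connected sets and medians were computed with Python 3.11.15, numpy 2.4.6, pandas 2.3.3 and scipy 1.17.1, figures were drawn with matplotlib 3.10.9, and the code recovered all 6 planted quantities in 5000 simulated peaks. The gene table was that of RefSeq for TAIR10.1. It gives no strand and no exons and holds 27444 nuclear protein-coding genes. No genome sequence was used, so no sequence is shown and restriction sites were not compared with boundaries. Biotypes named ncRNA, misc_RNA or other form the class of other RNA genes, which was added after the table was seen.

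Gene groups were taken by symbol (starting with LHCA, LHCB or RBCS, HSP, RPL or RPS and a digit, WRKY, H2A, H2B, HTA, HTB, HTR or HIS4, and IAA with a number). Genes that share these letters but whose synonyms in the gene table name another function were taken out. Named by rule were the 6 pairs with the largest summit distance and the 6 widest with summits within 10 bp. The 4 with the largest gain and the 4 with the largest loss of width were added. All of these had a fold of at least 4 in both samples. Also named were the 4 peaks split into most parts in each direction and the 5 pairs with the highest smaller fold. Up to 3 pairs per gene group and up to 2 per small RNA biotype were named, again those with the highest smaller fold. Members, lists and rules were chosen with earlier results of these data known. No test was made, since both samples are of 1 group.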

Additional observations from a re-analysis of the deposited data

How the results depend on the processing

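Requiring a -log10 q-value of 2 or more, or merging peaks within 100 bp, moved none of the 6 main values beyond its 95% interval; no gap is shorter than 151 bp, so this merging left both lists as they were. Restricting each list to its upper 50% by fold gave a median summit distance of 15 bp, 79.3% of summits within 50 bp, a median log2 width ratio of 0.015 in place of -0.013, 53.3% of pairs wider in replicate 2, and split shares of 2.08% for replicate 1 peaks and 2.13% for replicate 2 peaks with overlapping intervals. The restriction can drop the weaker parts of a split peak, so these split shares are lowered in part by construction. An overlap of 50% of both peaks admits no split by construction (0 in both directions) and gave a width ratio of -0.010. With midpoints in place of summits, 79.9% were within 50 bp.

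Chosen after the data were seen, merging peaks within 300 bp gave 72.9% within 50 bp, a width ratio of -0.018, 45.8% wider in replicate 2 and split shares of 3.96% and 2.06%. Replicate 1 cut to as many peaks as replicate 2, by fold, gave 19 bp, 75.7% within 50 bp and split shares of 3.62% and 2.28%. Single chromosomes ranged from 19 to 22 bp, 73.6% to 75.5% within 50 bp, -0.017 to -0.0070 in width ratio, 46.3% to 48.0% wider in replicate 2, and splits of 3.10% to 3.62% and 2.38% to 2.77%.

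Width ratios for classes by replicate 1 width were 0.045, -0.018, -0.034 and -0.023 from narrow to wide, and by replicate 2 width -0.23, 0.036, 0.035 and 0.0082, against -0.09, 0.0081, 0 and -0.0061 by mean width. Counting any overlap with a gene moved the median summit distance of small RNA genes from 12 to 20 bp and left the other 4 gene classes within their intervals. No paired analysis was possible because peak lists of 1 group were analysed here, and leaving out a replicate leaves no comparison. Depth is unknown in both samples, so the part of unequal depth in these differences was not tested.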
